A study of Mus musculus with 12 samples.

Results

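The genes described here code for the subunits of the receptors for glutamate and GABA, the main fast excitatory and inhibitory transmitters of the brain. Every symbol of the deposited count table that belongs to the AMPA (Gria), kainate (Grik), delta (Grid), NMDA (Grin), metabotropic glutamate (Grm), GABA-A (Gabr) or GABA-B (Gabbr) families was taken, and this gave 40 genes of the 22317 in the table. Of these, 18 code for ionotropic glutamate receptor subunits, 6 for metabotropic glutamate receptors, 14 for GABA-A subunits and 2 for GABA-B subunits. Grm2, Grm6, Gabra6, Gabrg3, Gabrp, Gabrr1 and Gabrr3 were not analysed here.

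The study asked how an ischemic injury made by photothrombosis (PT, in which an injected dye is activated by a laser through the skull and clots the vessels below) in the skull or the brain changes the transcriptome of the neighbouring tissue. All mice were wild-type male BALB/c animals, 8 weeks old at use, and poly(A) RNA was sequenced. There were 4 groups of 3 libraries, which the study calls biological replicates without saying whether each came from 1 animal. SB2 and SB4 are labelled brain cortex, taken 2 and 4 days after PT of the skull, and BS2 and BS6 are labelled interparietal bone, taken 2 and 6 days after PT of the brain. Every group therefore came from injured mice, and uninjured tissue and the injured tissues themselves were not analysed here. Total counts ran from 14126082 to 18972654 per library with a median of 15955222.5.

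The transcripts did not follow the tissue labels in SB2 and BS2, and this bears on every comparison. The summed level of 8 osteoblast and osteocyte markers was 36850 to 41970 CPM (counts relative to the TMM-adjusted library size) in SB2 and 19220 to 79450 CPM in BS6, against 23.2 to 26.1 CPM in SB4 and 24.2 to 34.6 CPM in BS2. The summed level of 10 neuron markers was 9917 to 10310 CPM in SB4 and 9573 to 9834 CPM in BS2, against 107 to 147 CPM in SB2 and 136 to 173 CPM in BS6. So the libraries labelled SB2 and BS6 were rich in bone transcripts and those labelled SB4 and BS2 were rich in brain transcripts. They are called the bone-rich and the brain-rich libraries below. Within BS6, replicate 2 stood apart, with the lowest osteoblast and the highest neutrophil and neuron marker levels of its group, and the values it moves most are also given without it. In the comparisons of a later with an earlier day, time after injury and the tissue that the transcripts show cannot be told apart. In bulk tissue, fewer cells of a type and less RNA per cell cannot be told apart either.

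Glutamate opens AMPA, kainate and NMDA receptors, which are tetramers that pass cations. AMPA receptors carry most of the fast current, whereas NMDA receptors need the obligatory subunit Grin1 and open only when the membrane is already depolarized. The metabotropic receptors act through G proteins. GABA opens GABA-A receptors, pentameric chloride channels that in the cortex usually join alpha, beta and gamma subunits, and it activates GABA-B receptors, G protein-coupled dimers of Gabbr1 and Gabbr2. In the adult brain most of these genes are expressed in neurons, and some also in glia.

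Sequence just upstream of the annotated start is shown for 5 members chosen, after their values were seen, to contrast how members are spread over the 2 kinds of library. These are Gabbr2 and Gria2, which were far lower in bone-rich libraries, Gabbr1 and Grik5, which were lower there by less, and Gabre, which was higher there. The sequences are from RefSeq on GRCm38.p6 (the mm10 build), read 5′ to 3′ on the strand of the gene, and bases inside the annotated gene were left out. Capitals mark GGGCGG (the core of the GC box bound by Sp1) or GGACAGC (the right part of the RE1 element bound by REST, a repressor of neuronal genes in non-neuronal cells), on either strand.
Gabbr1, chr17:37045716-37045965, plus strand: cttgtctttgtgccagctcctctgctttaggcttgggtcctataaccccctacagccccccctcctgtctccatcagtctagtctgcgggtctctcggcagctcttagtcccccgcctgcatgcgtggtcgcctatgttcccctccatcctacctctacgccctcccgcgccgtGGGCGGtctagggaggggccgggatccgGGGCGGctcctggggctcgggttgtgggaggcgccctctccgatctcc
Gabbr2, chr4:46991874-46991964, minus strand: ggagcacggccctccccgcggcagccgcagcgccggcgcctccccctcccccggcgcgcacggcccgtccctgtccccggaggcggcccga
Gria2, chr3:80802836-80803085, minus strand: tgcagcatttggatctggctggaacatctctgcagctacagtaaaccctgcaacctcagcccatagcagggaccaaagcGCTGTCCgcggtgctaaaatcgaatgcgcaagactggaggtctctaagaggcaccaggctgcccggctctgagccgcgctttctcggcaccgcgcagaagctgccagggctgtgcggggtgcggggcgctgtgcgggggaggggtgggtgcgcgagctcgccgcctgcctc
Grik5, chr7:25072370-25072619, minus strand: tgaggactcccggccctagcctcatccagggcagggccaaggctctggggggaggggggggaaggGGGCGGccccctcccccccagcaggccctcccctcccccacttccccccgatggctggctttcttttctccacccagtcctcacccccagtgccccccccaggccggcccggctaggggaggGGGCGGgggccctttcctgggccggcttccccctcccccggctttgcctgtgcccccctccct
Gabre, chrX:72274804-72274971, minus strand: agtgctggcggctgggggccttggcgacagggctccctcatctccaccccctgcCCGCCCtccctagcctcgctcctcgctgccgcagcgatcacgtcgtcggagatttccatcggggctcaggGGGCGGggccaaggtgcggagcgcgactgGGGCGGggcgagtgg

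In these printed stretches GGGCGG occurs at 2 places in Gabbr1, 2 in Grik5 and 3 in Gabre. The full promoter entry of Gabbr2 also holds 2, in bases left out of the print because they lie inside the annotated gene, so the printed stretches do not set these genes apart by this motif. GGACAGC occurs at 1 place in Gria2. A RefSeq promoter was given for 25 of the 40 members, in 32 entries. Over the 250 bases before the start, on either strand, GGGCGG was found in 15 of these 32 entries (46.88%), against 32.74% of all 32851 mouse promoters. GGACAGC was found in 1 entry (3.12%), against 5.28%. The left part of the RE1 element, TTCAGCACC, was found in 0 entries, against 0.3% of all promoters. A match describes the letters of the window and no binding was measured.

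In sum, the 40 genes were far more abundant in the brain-rich libraries. Their summed level was 7274 to 7724 CPM in SB4 and 7285 to 7466 CPM in BS2, but 225 to 267 CPM in SB2 and 326 to 437 CPM in BS6. That is 0.716% to 0.748% of all counts in the brain-rich libraries and 0.0236% to 0.0464% in the bone-rich ones. The brain-rich and bone-rich ranges lie far apart, and within the bone-rich libraries BS6 replicate 2 was the highest.

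**Figure D1:**
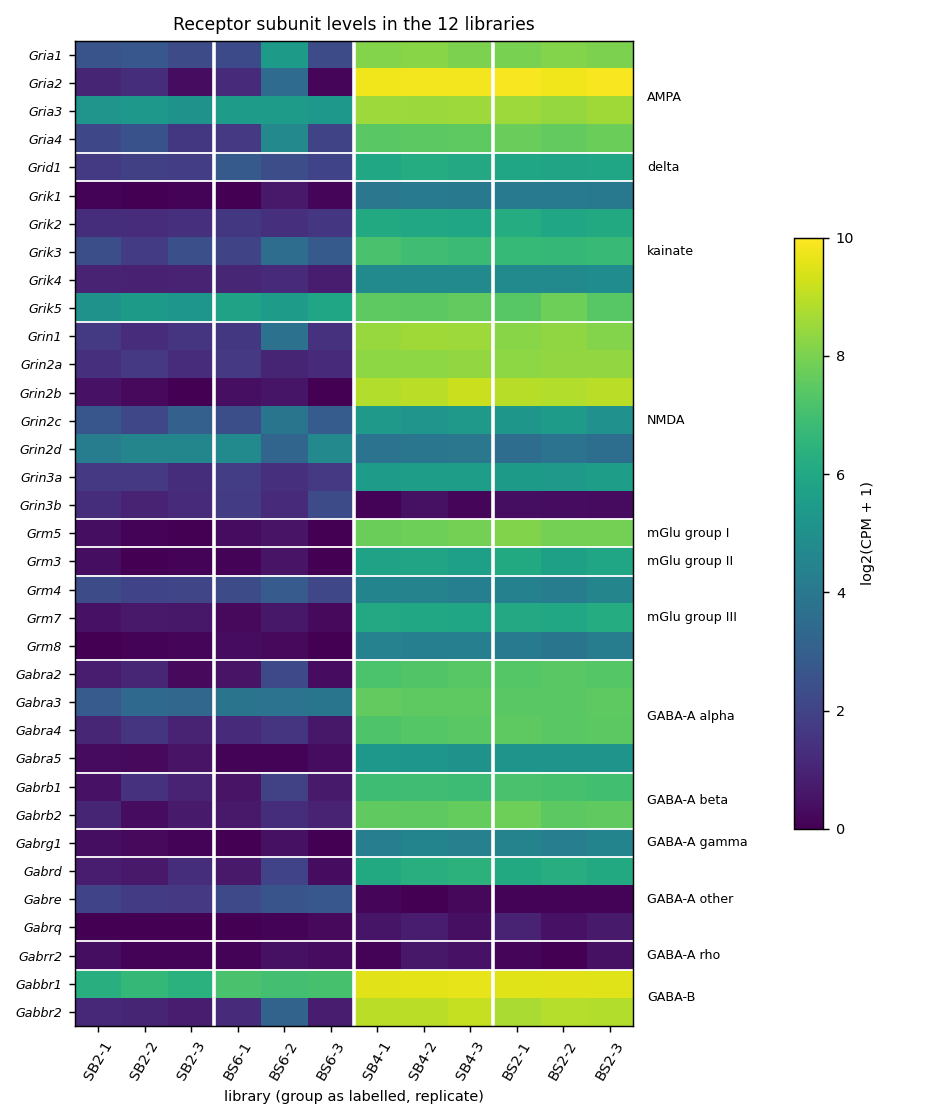
Level of each of 35 receptor genes (rows, by receptor class) in the 12 libraries (columns), as log2(CPM + 1), with CPM scaled by TMM factors. The 6 brain-rich libraries on the right are high except for Gabre, Grin3b, Gabrq and Gabrr2, the 6 bone-rich libraries on the left are low except for genes such as Gabbr1, Grik5 and Gria3, and BS6-2 differs from its group in several rows.

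Within the brain-rich libraries the order of the members was set per length, as CPM divided by kilobases of exon, averaged over SB4 and BS2. Among the members named here, Gabbr1 stood at 96.9 CPM per kb, Gabbr2 at 72.4, Gria2 at 58.9 and Gabra3 at 46.3. Gria2 codes for the subunit that makes AMPA receptors poorly permeable to calcium. For Gabbr1 the level was 99.5 ± 3.58 CPM per kb in SB4 and 94.4 ± 0.924 in BS2, and for Gabbr2 it was 77.5 ± 4.63 and 67.4 ± 3.98 (SD, n = 3 each), so these neighbours lay further apart than their spread. At the low end were Gabrr2, Gabrq, Grin3b and Gabre, all under 0.12 CPM per kb. The bone-rich libraries had another order. Averaged over SB2 and BS6, Gabbr1 stood at 14.35 CPM per kb, Grik5 at 8.66, Gria3 at 4.01, Grin2d at 3.08 and Gabra3 at 2.78.

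The AMPA receptor genes show how unequal the difference between the 2 kinds of library was. Gria2 was read at 887, 900 and 904 CPM in SB4 and 958, 885 and 965 CPM in BS2, but at 1.02, 1.47 and 0.244 CPM in SB2 and 1.30, 10.3 and 0.127 CPM in BS6. Gria3, on chromosome X, was read at 374, 358 and 375 CPM in SB4 and 371, 345 and 376 CPM in BS2, and still at 36.4, 39.3 and 34.3 CPM in SB2 and 45.2, 43.3 and 39.0 CPM in BS6. All libraries of the brain-rich groups lay above all bone-rich ones for both genes, but Gria3 was, per length, the most abundant AMPA gene of the bone-rich libraries other than BS6 replicate 2, and Gria2 was low there, close to the limit of detection in SB2 replicate 3 and BS6 replicate 3 (3 counts correspond to 0.163 to 0.218 CPM). In SB4 against SB2, the edgeR quasi-likelihood fit, with p adjusted over all genes by the Benjamini-Hochberg method, gave a log2 fold change of 9.95 for Gria2 (SE 0.285, adjusted p = 1.17e-08) and of 3.34 for Gria3 (SE 0.0766, adjusted p = 8.8e-12). Gria1 and Gria4 lay between them at 5.84 and 5.73. In BS6 against BS2 the same 4 genes were lower, with log2 differences of -7.85 for Gria2, -4.27 for Gria4, -3.94 for Gria1 and -3.06 for Gria3. Across the 3 BS6 libraries Gria1 was at 3.72, 42.3 and 4.07 CPM and Gria4 at 2.15, 25.3 and 3.18 CPM, so replicate 2 sets the mean of these 2 genes. Without it the differences were -10.31 for Gria2, -6.22 for Gria4 and -6.05 for Gria1.

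By share of the summed CPM per kb of the class, Gria3 made up 72.9% ± 4.15 of the AMPA class in SB2 and 61.9% ± 30.0 in BS6, against 22.1% ± 0.758 in SB4 and 21.3% ± 0.576 in BS2 (SD, n = 3 each). In BS6 the share was 81.5%, 27.3% and 76.9%, so replicate 2 again stood apart, and there Gria1 led with 43.6%. Gria2 made up 34.0% ± 0.473 and 34.7% ± 0.999 in SB4 and BS2, where the 4 AMPA genes were all present in quantity. The ratio of Gria1 to Gria2 in CPM per kb was 0.802 ± 0.0503 in SB4 and 0.732 ± 0.0842 in BS2. An exact two-sided permutation test gave p = 0.3 (adjusted p = 0.6 over 3 ratios), where the smallest p that 3 against 3 libraries can give is 0.1.

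NMDA receptor genes were spread widely, with log2 differences of -2.63 to 11.26 in SB4 against SB2. Grin2b, the subunit that dominates early in development and keeps a large part in the adult forebrain, was at 465, 492 and 592 CPM in SB4 and 488, 465 and 496 CPM in BS2. In SB2 it was at 0.399, 0.200 and 0 CPM and in BS6 at 0.326, 0.483 and 0 CPM. Its 10 reads over the 3 SB2 libraries stand against 26240 in SB4, a ratio of 2546 with a counting interval of 1384 to 5311 (95%, exact, covering counting error only). The log2 fold changes were 11.26 in SB4 against SB2 (SE 0.301, adjusted p = 4.14e-09) and -10.71 in BS6 against BS2 (SE 0.599, adjusted p = 1.72e-05, edgeR), the latter -11.44 without BS6 replicate 2 and the former 12.29 without SB2 replicate 1. Grin1, without which no NMDA receptor forms, was at 346, 378 and 368 CPM in SB4 and 300, 325 and 284 CPM in BS2, against 1.40 to 2.22 CPM in SB2. In BS6 it was at 2.09, 12.2 and 1.72 CPM.

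Grin2d and Grin3b went the other way from most members. Grin2d, a subunit of receptors with slow kinetics, had 314, 335 and 381 counts in SB2 and 186, 260 and 260 in SB4, which is 21.2 ± 2.87 and 13.9 ± 0.667 CPM. The log2 difference was -0.59 (SE 0.12, adjusted p = 7.42e-04), under the fold threshold of 1 used here for a call. In BS6 it had 398, 143 and 393 counts and in BS2 185, 202 and 153, and the log2 difference of 0.80 did not pass (SE 0.401, adjusted p = 0.112). Without BS6 replicate 2, where it was low, the difference was 1.17 and passed (adjusted p = 2.41e-05). Grin3b, a subunit of glycine-gated receptors, had 26, 15 and 21 counts in SB2 against 1, 7 and 2 in SB4, and 36, 21 and 63 counts in BS6 against 5, 4 and 3 in BS2. It was called in both comparisons (log2 -2.63, SE 0.507, adjusted p = 5.26e-04, and log2 3.29, SE 0.536, adjusted p = 0.00143). However, 32.13% of its exon bases lie opposite exons of Tmem259, a gene on the other strand that was read at 118 CPM in SB2, 78.8 in SB4, 76.5 in BS2 and 144 in BS6. Whether the counting used strand was not given in the sources used here, so reads of the 2 genes cannot be told apart in that stretch. Of the exon bases of Grin2d, 9.66% lie opposite Gm45441, which did not exceed 1.03 CPM in any library.

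Per length, Grin1 led the NMDA class in both brain-rich groups (41.7% ± 1.69 in SB4 and 38.1% ± 1.46 in BS2), whereas without division by length the very long Grin2b led. In SB2 Grin2d held 62.7% ± 6.80 of the class and Grin1 held 3.76% ± 0.967. In BS6 Grin2d held 64.8%, 22.1% and 56.2% in the 3 libraries, and in replicate 2 Grin2c led with 46.5%. Grin2c followed with 20.8% ± 5.89 in SB2, and its level there was 5.38 ± 1.97 CPM, or 13.6% of that in SB4. The ratio of Grin2a to Grin2b, which rises as cortical synapses mature, was 0.872 ± 0.0799 in SB4 and 0.941 ± 0.0578 in BS2. The exact two-sided permutation test gave p = 0.5 (adjusted p = 0.6).

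Among the kainate receptor genes, Grik5, which codes for a high-affinity subunit that needs a partner from Grik1 to Grik3 to form a channel, was the abundant member in all 4 groups. It was at 182, 180 and 192 CPM in SB4 and 169, 219 and 168 CPM in BS2, and at 33.0, 42.6 and 37.5 CPM in SB2 and 53.1, 44.7 and 57.6 CPM in BS6. The groups did not overlap between the 2 kinds of library, and the fold changes were among the smallest of all called members (log2 2.30 in SB4 against SB2, SE 0.0892, and -1.80 in BS6 against BS2, SE 0.153, adjusted p = 5.52e-10 and 7.59e-05 by edgeR). Its possible partners were far lower in bone-rich libraries. Grik1 had 2 reads in the 3 SB2 libraries against 782 in SB4, a ratio of 379 (counting interval 105 to 3139), and Grik2 was at 1.40 to 1.65 CPM in SB2 and 1.57 to 2.09 CPM in BS6. Grik3 was at 4.27, 2.33 and 4.46 CPM in SB2 and 3.20, 11.1 and 6.05 CPM in BS6. Grik5 made up 91.3% ± 2.54 of the kainate class in SB2 and 89.9% ± 5.18 in BS6, against 58.6% ± 2.33 in SB4 and 60.2% ± 4.34 in BS2.

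Grid1 codes for a delta receptor, a protein that organises synapses by binding cerebellins. It was at 63.3 to 71.7 CPM in SB4 and 56.4 to 60.1 CPM in BS2, against 2.22 to 2.73 CPM in SB2 and 3.06 to 6.06 CPM in BS6. The log2 difference of Grid1 was 4.73 in SB4 against SB2 (SE 0.114, adjusted p = 1.3e-11) and -3.69 in BS6 against BS2 (SE 0.256, adjusted p = 3.49e-05, edgeR).

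All 6 metabotropic glutamate receptor genes were called higher in SB4 than in SB2 and lower in BS6 than in BS2, beside 27.8% and 26.5% of all genes tested. Grm5, a group I receptor coupled to calcium release, was at 212, 219 and 237 CPM in SB4 and 272, 239 and 242 CPM in BS2, and had 5, 1 and 0 reads in the 3 SB2 libraries (log2 10.75, SE 0.228, or 12.46 without SB2 replicate 1). Grm3, a group II receptor found in neurons and astrocytes, was at 49.4 to 56.9 CPM in SB4 and had 5, 0 and 1 reads in SB2, a ratio over the summed reads of 434 (counting interval 199 to 1183, covering counting error only and not the spread between these libraries). In group III, Grm8 and Grm7 were lower by 6.66 and 7.65 on the log2 scale in BS6 than in BS2, and by 6.84 and 8.33 without replicate 2. Grm4 had the smallest log2 differences of the 6 (2.59 and -2.13). It was at 18.1 to 22.5 CPM over the brain-rich libraries and at 3.06 to 6.22 CPM over the bone-rich ones, and it made up 85.6% ± 4.41 of its class in SB2 against 21.5% ± 0.635 in SB4.

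Many GABA-A genes lie in chromosomal clusters. Gabrg1, Gabra2, Gabra4 and Gabrb1 lie on chromosome 5 between 70751047 and 72149037, and Gabre, Gabra3 and Gabrq on chromosome X between 72255999 and 72842602 (GRCm38, GENCODE M21). The genes of the chromosome 5 cluster lay on the side of the majority, with log2 differences of 6.70 to 7.88 in SB4 against SB2 and of -7.23 to -6.58 in BS6 against BS2. The latter rest in part on BS6 replicate 2. Without it Gabra2 was at -8.81, Gabrb1 at -7.85 and Gabra4 at -7.47, and Gabrg1 had 6 counts in replicate 2 and 0 in both other BS6 libraries. Gabra4 and Gabrb1 share 46 exon bases on opposite strands.

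The chromosome X cluster did not behave as a block. Gabre, which codes for the epsilon subunit, had 53, 37 and 35 counts in SB2 and 56, 84 and 88 in BS6, but 2, 0 and 3 in SB4 and 1, 1 and 1 in BS2. These groups lie fully apart, with the bone-rich ones on top. The ratio of SB2 to SB4 was 25.8 (counting interval 10.8 to 80.7) and that of BS6 to BS2 was 74.0 (24.99 to 361). Gabre was called lower in SB4 than in SB2 (log2 -4.57, SE 0.521, adjusted p = 7.59e-06) and higher in BS6 than in BS2 (log2 6.07, SE 0.374, adjusted p = 2.16e-05). Its neighbour Gabra3 was at 184 to 190 CPM in SB4 and 172 to 184 CPM in BS2, and at 6.38, 9.72 and 8.91 CPM in SB2 and 13.4, 13.1 and 13.9 CPM in BS6 (log2 4.49 and -3.68). Gabrq, for the theta subunit, was near the limit of detection in all libraries. It had 7, 13 and 6 counts in SB4, 17, 6 and 9 in BS2, 0 in each SB2 library and 0, 1 and 3 in BS6, and was too low to be tested in either comparison.

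Among the alpha subunits, Gabra3 held 77.7% ± 6.78 of the CPM per kb in SB2 and 78.1% ± 21.5 in BS6, against 22.1% ± 1.19 in SB4 and 20.6% ± 0.764 in BS2. In BS6 the Gabra3 share was 88.8%, 53.4% and 92.2%. Gabrd, the subunit of extrasynaptic receptors that respond to ambient GABA, was at 66.3 to 85.7 CPM in SB4 and 66.1 to 74.99 CPM in BS2, and at 0.599 to 1.47 CPM in SB2. Gabrr2, a rho subunit known from the retina, had 7 counts in SB2, 18 in SB4, 7 in BS2 and 11 in BS6 over the 3 libraries of each group and was tested in neither comparison.

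The 2 GABA-B genes differed sharply although their proteins act as a pair, in which Gabbr1 binds the ligand and Gabbr2 brings the receptor to the surface and couples it to the G protein. Gabbr1 was at 744, 773 and 800 CPM in SB4 and 731, 741 and 727 CPM in BS2, and at 79.0, 101.2 and 83.3 CPM in SB2 and 140, 129 and 137 CPM in BS6. Gabbr2 was at 500, 500 and 554 CPM in SB4 and 420, 471 and 460 CPM in BS2, but at 1.14, 1.07 and 0.733 CPM in SB2 and 1.30, 8.15 and 0.764 CPM in BS6. Both were lower in every bone-rich library than in any brain-rich one. The log2 differences in SB4 against SB2 were 3.14 for Gabbr1 (SE 0.1, adjusted p = 1.09e-10) and 9.04 for Gabbr2 (SE 0.131, adjusted p = 1.02e-12). In BS6 against BS2 they were -2.40 (SE 0.105) and -6.99 (SE 0.943), the latter -8.72 without replicate 2. Gabbr1 made up 98.7% ± 0.326 of the pair per length in SB2 and 97.1% ± 3.47 in BS6, against 56.2% ± 0.843 in SB4 and 58.4% ± 1.36 in BS2.

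**Figure D2:**
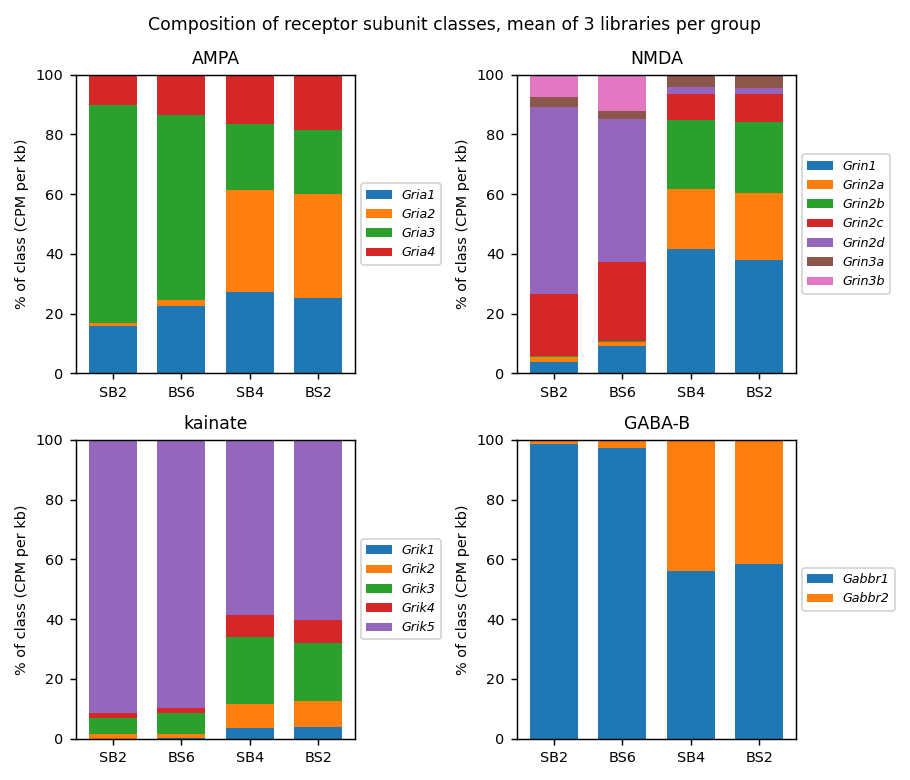
Percent of the summed CPM per kb of exon that each subunit holds within 4 receptor classes, as the mean of 3 libraries per group, with the bone-rich groups SB2 and BS6 on the left of each panel. By these means Gria3, Grin2d, Grik5 and Gabbr1 hold the largest shares in the bone-rich groups, while SB4 and BS2 resemble each other. In BS6 replicate 2 alone, Gria1 and Grin2c led the AMPA and NMDA classes.

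The same subunit led per length in SB4 and BS2 in 11 of 11 classes with at least 2 members (GABA-A delta, epsilon and theta as 1 class), and in SB2 and SB4 in 5 of them, namely kainate, delta, GABA-A beta, GABA-A gamma and GABA-B.

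Counting calls over all members (adjusted p under 0.05 and a log2 fold change over 1 in size), 35 of the 38 members tested in SB4 against SB2 were higher, beside 27.8% of all 17293 genes tested, and 2 were lower, beside 28.6%. The 2 were Gabre and Grin3b. By adjusted p alone the 38 were 35 higher and 3 lower, the last being Grin2d, beside 41.3% and 42% of all genes, and the libraries of the 2 groups did not overlap for the same numbers of members, beside 42.4% above and 43.1% below. The median log2 difference was 6.52 over the members tested (range -4.57 to 11.26) and -0.01 over all genes. In BS6 against BS2, 34 of 38 were lower, beside 26.5% of 17311 genes, and 2 were higher, beside 29%. Grin2d was among the 2 that were not called. The libraries did not overlap for 35 members below, beside 41% of all genes, and for 2 above, beside 39.7%. By adjusted p alone 34 were lower and 2 higher, beside 36.8% and 38.2%. The median was -5.73 over the members and 0.02 over all genes. Without BS6 replicate 2, 36 of 39 were lower and 3 were higher, beside 4808 lower and 5100 higher of all 17686 genes tested. Members that were near 0 in bone-rich libraries passed the filter on low counts through the brain-rich group, so these counts describe the members that could be tested. When the 2 differences were set against each other in 1 fit of the 12 libraries, 36 of 39 members differed downward, beside 35.8% of all genes, and 3 upward, beside 37.8%.

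Set as a percentage of the level in brain-rich libraries, the members stood at a median of 1.07% in SB2 (of SB4) and 2.36% in BS6 (of BS2), or 1.06% in BS6 without replicate 2. The 10 neuron markers stood at 0.162% to 7.23% in SB2, with a median of 0.640%, and at 0.402% to 8.76% in BS6, with a median of 0.905%. In SB2, 20 members were under 1%, 11 were at 1% to 5%, 4 at 5% to 20%, 2 at 20% to 100% and 3 over 100%. In both comparisons 9 members lay above the highest neuron marker. They were Grin2d (152% in SB2 and 171% in BS6), Grin3b (668% and 992%), Gabre (2466% and 7322%), Grik5 (20.4% and 28.0%), Grm4 (16.6% and 22.2%), Grin2c (13.6% and 21.4%, the latter 14.1% without replicate 2), Gabbr1 (11.4% and 18.4%), Gria3 (9.94% and 11.7%) and Gabrr2, whose counts are low. At the other end Grin2b stood at 0.0386% and 0.0558%, or 0.0337% in BS6 without replicate 2.

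**Figure D3:**
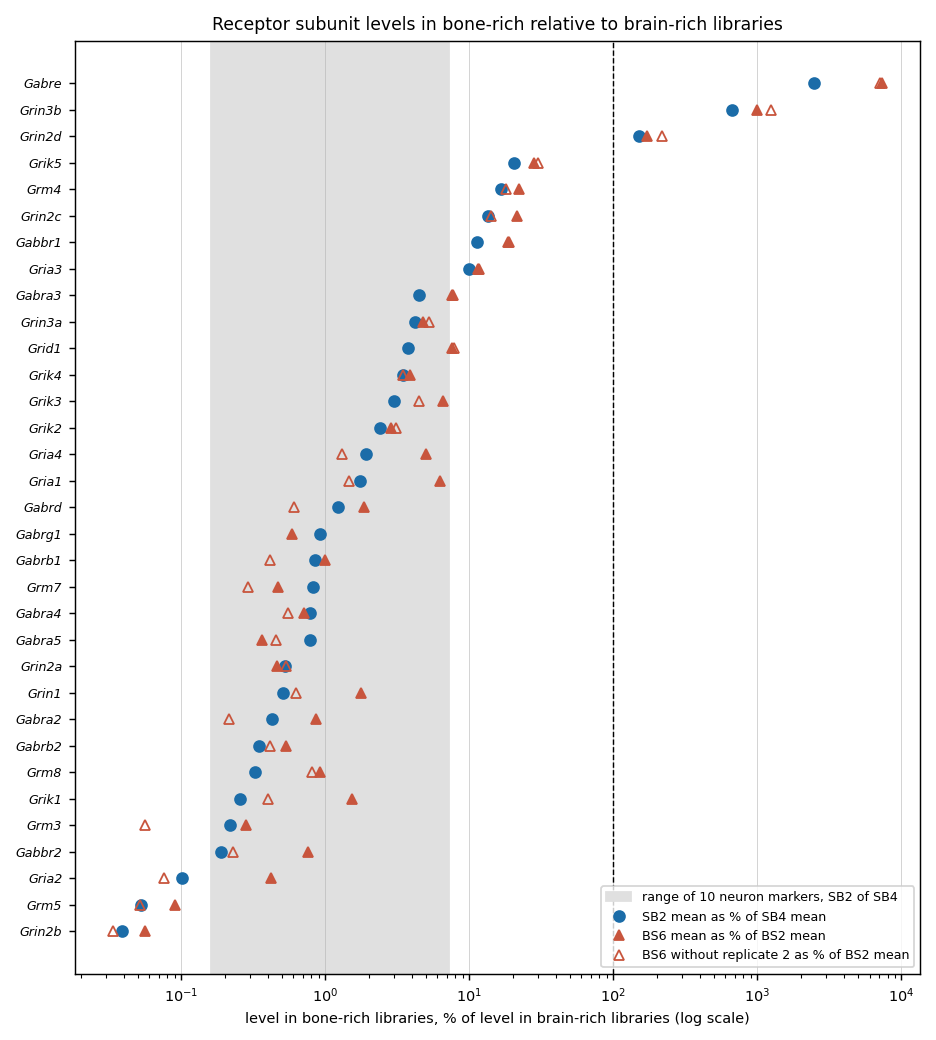
Mean level of 33 receptor genes in bone-rich libraries as a percentage of the mean in brain-rich libraries, on a log axis, for SB2 of SB4 (circles) and BS6 of BS2 with (filled triangles) and without (open triangles) replicate 2. Gabrq and Gabrr2 are left out for low counts. The grey band spans the 10 neuron markers in SB2 (0.162% to 7.23%), the dashed line is 100%, and Gabre, Grin3b and Grin2d lie to its right.

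BS6 replicate 2 stood apart from its group in these genes. Of the 38 members tested in BS6 against BS2, 12 were over 3-fold above both other BS6 libraries there, beside 3.37% of all genes tested, and 0 were over 3-fold below both, beside 1.06%. These counts used a minimum of 1 CPM. Gabrg1, Grik1 and Grm3 were also over 3-fold above, but under that minimum in all BS6 libraries, and were left out. Among the 12 were Gria1, Gria2, Gria4, Grin1, Gabra2, Gabrb1, Gabrd and Gabbr2. Gria1 was 10.4-fold above the higher of the other 2 libraries there, Gria4 7.93-fold and Grin1 5.85-fold. Not all members shared the excess. Grin2a was at 2.15, 1.03 and 1.34 CPM and Grin2b at 0.326, 0.483 and 0 CPM, while Gabbr1, Grik5, Gria3 and Gabra3 were at similar levels in all 3 libraries. Across the 36 members with at least 10 CPM in brain-rich libraries, the median coefficient of variation was 89.1% in BS6, against 29.0% in SB2, 5.21% in SB4 and 5.47% in BS2. Many of these members had few reads in the bone-rich libraries, such as Grm5 with 5, 1 and 0 in SB2. Counting error therefore enters the values of SB2 and BS6, and its part was not tested.

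Some genes of other lists were also high in that library, those of cerebellar cells among them. From the list of 7 cerebellar granule and Purkinje cell markers, Cbln3 was at 0.783, 14.6 and 1.46 CPM in the 3 BS6 libraries, Pcp2 at 0.0652, 4.65 and 0 CPM, Calb1 at 0.978, 19.4 and 0.0636 CPM, and Car8 at 2.87, 16.0 and 4.77 CPM. Cbln1, a secreted synapse organiser from the list of delta receptor partners, was at 1.57, 12.2 and 2.1 CPM. The summed level of all 7 cerebellar markers was 263 to 280 CPM in BS6 and 232 to 265 CPM in SB2, against 175 to 236 CPM in SB4 and 232 to 248 CPM in BS2. The BS6 libraries had 263, 280 and 277 CPM, so the sum did not set replicate 2 apart. Zic1, the most abundant of the 7, was lowest in that library, at 207.8, 164.6 and 213.8 CPM in the BS6 libraries, Zic2 was at 50.8, 60.2 and 57.3 CPM, and Barhl2 was at no more than 0.483 CPM in any bone-rich library. The excess was not limited to cerebellar markers. The summed oligodendrocyte markers were at 182, 426 and 204 CPM in the BS6 libraries and the thalamic neuron markers at 244.5, 372 and 222 CPM, while the cortical excitatory neuron markers were at 187, 92.4 and 267 CPM. Aldoc, an astrocyte marker, was at 10.4, 96.8 and 6.43 CPM, Slc1a2 at 25.5, 66.4 and 8.85 CPM and Slc1a3 at 38.0, 73.1 and 20.1 CPM. Of the astrocyte list only Gja1 was not highest in replicate 2. It was at 448, 176 and 661 CPM, in a list sum of 547, 492 and 730 CPM. Slc32a1, the vesicular transporter of inhibitory neurons, was at 0, 6.04 and 0.0636 CPM. The summed inhibitory neuron markers were at 21.2, 55.5 and 53.4 CPM, so replicate 2 did not stand apart from replicate 3. Of that list, Lhx6 was at 9.52, 5.56 and 6.94 CPM and Pvalb at 8.09, 28.4 and 39.8 CPM. The same library had 19220 CPM of the osteoblast markers, against 55770 and 79450 in the other 2, and 23650 CPM of neutrophil lineage markers, against 1366 and 3279. The part of these cells in the receptor values was not tested.

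**Figure D4:**
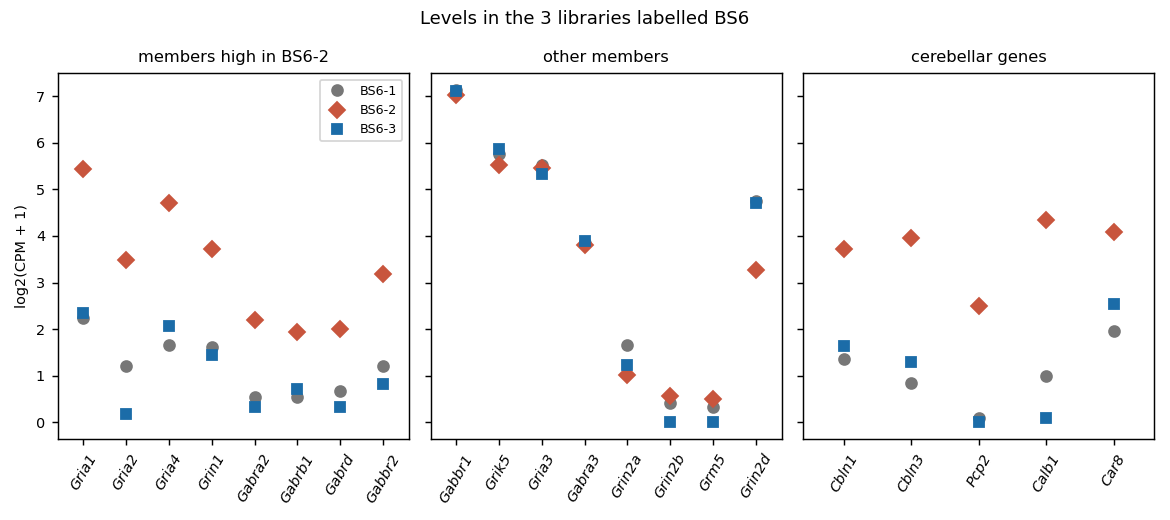
Levels as log2(CPM + 1) in the 3 BS6 libraries, for 8 of the 12 receptor genes that were high in replicate 2 (left), for 8 other receptor genes (middle) and for 4 of the 7 cerebellar markers and Cbln1 (right). The genes were chosen after their values were seen. Replicate 2 (diamonds) is above the other 2 libraries in every gene of the left and right panels, while in the middle panel Grin2d is clearly lowest there.

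The 2 brain-rich groups, SB4 and BS2, could be compared within 1 kind of transcriptome. By their labels they differ at once in site of injury, day and tissue, and these cannot be told apart here. Of 37 members tested, 0 were called at the fold threshold by edgeR, beside 0.086% of 16278 genes called higher and 0.0614% lower, and DESeq2 also called 0. The log2 differences ran from -0.43 to 0.26 with a median of 0. By adjusted p alone 1 was higher, beside 0.571% of all genes, and 0 were lower, beside 0.369%. This was Grin1, at 364 ± 16.5 CPM in SB4 and 303 ± 20.9 CPM in BS2 (log2 0.25, SE 0.0551, adjusted p = 0.0305), with all 3 SB4 libraries above all 3 BS2 libraries. The antisense gene Grin1os, which shares 13.47% of the exon bases of Grin1, was at 26.5 ± 1.27 and 21.9 ± 1.39 CPM. The adjusted p of Grin1 was above 0.05 when any SB4 library or BS2 replicate 1 or 3 was left out (0.0515 to 0.213), and it was 1 when all 12 libraries shared 1 estimate of spread.

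The next smallest p values belonged to Gria4 (log2 -0.21, SE 0.0552, adjusted p = 0.0715), Gabbr2 (0.19, SE 0.0558, adjusted p = 0.14), Grm5 (-0.19, SE 0.0607, adjusted p = 0.17) and Grik3 (0.24, SE 0.0778, adjusted p = 0.191). Gria4 was at 175, 179 and 182 CPM in SB4 and 208, 193 and 212 CPM in BS2. Grik3 was at 140, 120 and 112 CPM in SB4 and 103, 100.2 and 107 CPM in BS2. For each of these 4 genes the libraries of the 2 groups did not overlap, but the difference did not pass the test. In total 7 members had all SB4 libraries above all BS2 libraries, beside 10% of all genes, and 4 had all below, beside 6.51%. Gabre, Grin3b and Gabrr2 were too low to be tested here. The standard errors were 0.115 or less except for the low-count Gabrq (log2 -0.43, SE 0.48).

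**Figure D5:**
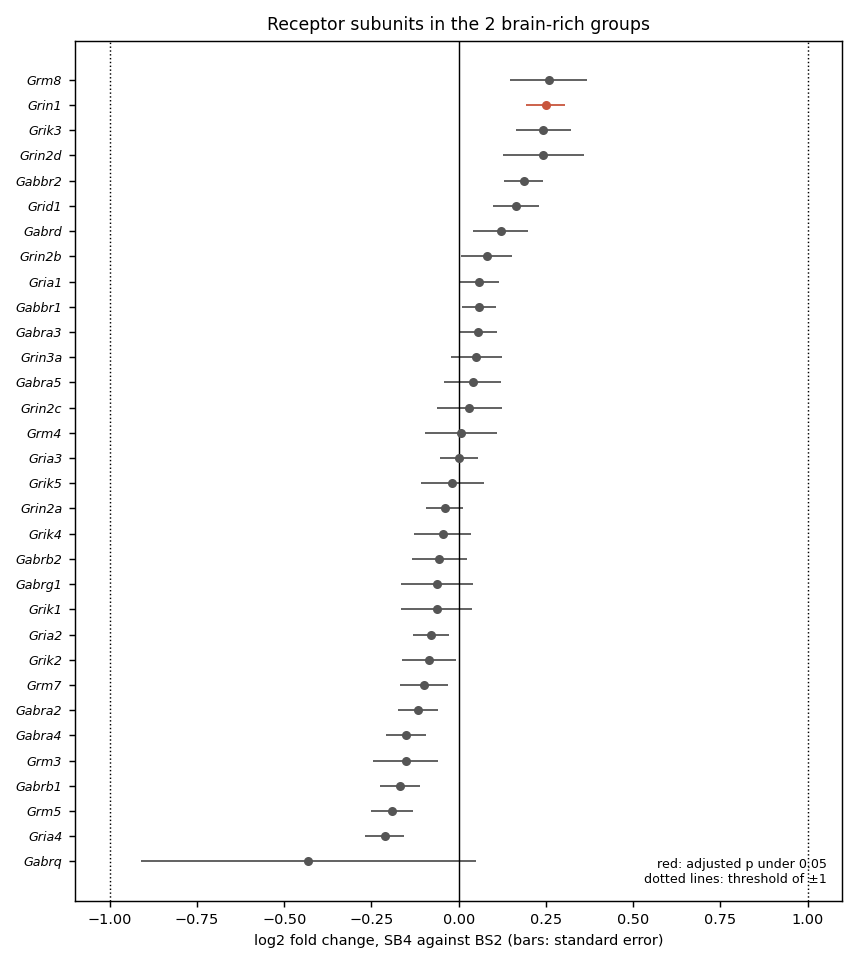
Log2 fold change of 32 receptor genes in SB4 against BS2 with its standard error (edgeR), in order of size, with dotted lines at the fold threshold of 1. All points lie between -0.43 and 0.26, and Grin1, in red, is the gene with an adjusted p under 0.05.

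The 2 bone-rich groups, SB2 and BS6, held less signal, and 28 members could be tested. Site of injury, day and tissue label differ together between these groups too and cannot be told apart. Again 0 were called at the fold threshold by edgeR, beside 0.741% of 16329 genes called higher and 1.11% lower, and 0 by DESeq2. Of the 28 log2 differences, 25 were negative, which means lower in SB2, and the median was -0.65 against -0.02 over all genes. With BS6 replicate 2 left out, 8 were positive. By adjusted p alone 1 member was lower in SB2, beside 2.28% of all genes, and 0 were higher, beside 3.42%. This was Gabbr1, at 87.8 ± 11.7 CPM in SB2 and 135 ± 5.64 CPM in BS6 (log2 -0.64, SE 0.119, adjusted p = 0.0403). Its adjusted p was above 0.05 when any SB2 library or BS6 replicate 1 or 3 was left out (0.0793 to 0.187) and 0.00669 without BS6 replicate 2.

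Gabra3, Gabre, Grik5 and Grid1 came next. Gabra3 was at 8.34 ± 1.74 CPM in SB2 and 13.5 ± 0.447 CPM in BS6 (log2 -0.71, SE 0.187, adjusted p = 0.0733). Gabre was at 2.54 ± 0.446 and 4.78 ± 1.01 CPM (-0.92, SE 0.262, adjusted p = 0.0846), Grik5 at 37.7 ± 4.76 and 51.8 ± 6.55 CPM (-0.47, SE 0.139, adjusted p = 0.0907) and Grid1 at 2.51 ± 0.26 and 4.43 ± 1.52 CPM (-0.84, SE 0.302, adjusted p = 0.133). For these genes and Gabbr1 all SB2 libraries lay below all BS6 libraries, 5 members beside 17.8% of all genes, and for 0 members above, beside 20.3%. Without BS6 replicate 2, Grin3b was called lower in SB2 (log2 -1.34, adjusted p = 0.0325), with the limit on its reads given above. The other 12 members, among them Grin2b, Grm5, Grm3 and Grm7, were too low in both groups to be tested.

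Proteins that bind or follow these receptors were read as fixed lists for context. Of 16 auxiliary subunits of AMPA and kainate receptors, 16 were higher in SB4 than in SB2 (median log2 5.72), beside 27.8% of all genes tested, and 15 were lower in BS6 than in BS2 (median -5.45), beside 26.5%, or 16 without BS6 replicate 2 (median -6.33). In the opposite direction, 28.6% and 29% of all genes were called in these comparisons. Among 23 glutamate receptor scaffolds, 22 were higher and 1, Homer3, was lower in SB4 against SB2, and 22 were lower and Homer3 was higher in BS6 against BS2. Homer3 was at 21.5 CPM in SB2 and 26.7 in BS6, against 2.71 in SB4 and 3.25 in BS2. All 4 genes of GABA synthesis and breakdown were higher in SB4 than in SB2 and lower in BS6 than in BS2 (medians 5.69 and -4.36, the latter -6.34 without BS6 replicate 2), among them Gad1, which makes GABA, at 497 and 432 CPM in SB4 and BS2, at 1.79 CPM in SB2 and at 1.11, 25.6 and 0 CPM in the BS6 libraries. Of 16 GABA receptor scaffold and auxiliary genes, 11 were higher and 3 lower in SB4 against SB2. The 3 were Gabarap, a trafficking and autophagy protein that binds gamma subunits, and Kctd12 and Kctd12b, which code for GABA-B auxiliary subunits, and each of the 3 was called higher in BS6 than in BS2. Kctd12 was at 142 CPM in SB2 and 144 in BS6, against 23.3 in SB4 and 25.3 in BS2. Of the 4 cerebellin and delta receptor partners, 3 were higher and 1 (Cbln3) lower in SB4 against SB2, while in BS6 against BS2 Cbln2 was lower and Cbln3, high in replicate 2, was higher. Without SB2 replicate 2 or SB4 replicate 1 or 3, 0 of these 4 were lower in SB4 than in SB2, and with all libraries in 1 fit 2 were higher and 0 lower. Without BS6 replicate 2, 3 were lower in BS6 than in BS2, and without any 1 BS2 library 0 were higher.

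Between SB4 and BS2, 0 genes of these lists were called at the fold threshold, beside 0.086% of all genes higher and 0.0614% lower. The smallest p values were those of Iqsec3, an inhibitory synapse protein (log2 0.31, SE 0.0542, adjusted p = 0.00451), Cbln2 (0.44, SE 0.0889, adjusted p = 0.0256) and Nptx1, a pentraxin that gathers AMPA receptors (0.27, SE 0.0622, adjusted p = 0.0456), by edgeR. Between SB2 and BS6, 2 were called, beside 0.741% of all genes higher and 1.11% lower. With a replicate block, or with any 1 of the SB2 libraries left out, 0 genes of the whole table were called in that comparison, so both calls were lost there. Both were also lost without BS6 replicate 1 and without BS6 replicate 3. Gsg1l, an AMPA receptor auxiliary subunit, was at 5.87, 7.46 and 5.86 CPM in SB2 and 2.02, 1.93 and 2.86 CPM in BS6 (log2 1.47, SE 0.246, adjusted p = 0.0343). Cacng4, which codes for TARP gamma-4, was at 1.54, 1.13 and 1.04 CPM in SB2 and 2.74, 4.41 and 4.07 CPM in BS6 (log2 -1.61, SE 0.304, adjusted p = 0.0406). In both the groups did not overlap.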

How the data were processed

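RNA was measured in 12 libraries by paired-end sequencing of poly(A) RNA. The authors cleaned reads with fastp and mapped them to mm10 with HISAT2 2.1.0, and deposited whole-number counts per gene symbol. The counting program, its annotation and its strand setting, and whether the batch correction the study describes came before the counts, are not given in the sources used here. All 12 columns carry a sample title and 0 were left unmapped.

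From these counts, edgeR 4.0.16 (R 4.3.3) was fitted to each pair of groups over all genes: filterByExpr with a minimum count of 10, TMM factors, robust quasi-likelihood test, Benjamini-Hochberg adjustment over all genes tested. A call needs an adjusted p under 0.05 and a log2 fold change over 1 in size. Levels are CPM with TMM factors, divided by exon kilobases (GENCODE M21) where genes are compared. GENCODE M21 held a record for 22029 symbols and for all 40 members. Counting intervals are exact at 95%. In simulated data for SB4 against SB2 (16959 genes), recovery was counted by adjusted p alone with the right sign, without the fold threshold. It was 89.6% for genes changed by 1.5 on the log2 scale and 99% for those changed by 3.

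The members and gene lists were chosen with earlier results of these data known. Genes were named by rule: for SB4 against BS2 and SB2 against BS6 the called members and the 5 with the smallest p, for the other comparisons the members against the majority and the 2 largest changes per class, the leading subunit per class, untested members, and the called genes (or 3 smallest p) of the lists. Genes compared in BS6 replicate 2, and the members set against the neuron markers, were chosen after their values were seen. Alternatives were DESeq2 1.42.0, RLE or no scaling factors, no filter, 1 fit of all libraries, a replicate block and leaving out each library. P-values rest on the variation between these libraries, and whether each library came from 1 animal was not given. Values of 5 members are not reported here by name. They stay in the counts, sums, shares and medians.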

Additional observations from a re-analysis of the deposited data

Results flagged for a closer look

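The change from the earlier to the later day differed between the groups labelled bone (BS6 against BS2) and those labelled cortex (SB4 against SB2) for 39 of 39 members that could be tested. In the test of that difference (edgeR, 12 libraries), it was lower in the bone-labelled pair for 36 members, beside 35.8% of all 18068 genes tested, and higher for 3, beside 37.8%. Of the 36, Grin2b had the most negative log2 difference at -21.96. The 3 that went the other way were Gabre at 10.66, Grin3b at 5.94 and Grin2d at 1.41. The libraries labelled SB2 and BS2 carry the transcripts of the other tissue, and this cannot be told apart from time and injury in these values.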

How the results depend on the processing

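Counts of members called at the fold threshold stayed within 1.5 times of the reported value in every alternative except 1: leaving out single libraries moved the members lower in SB2 than in BS6 from 0 to a range of 0 to 1 (Grin3b, without BS6 replicate 2). The median level in SB2 as a percentage of SB4 ran between 1.02% and 1.23% with 1 library removed, the highest without SB2 replicate 1. That in BS6 of BS2 ranged from 1.06% (without BS6 replicate 2) to 2.69%. No called member changed sign. Among members not called, signs did change: the positive ones, 3 of 28 in SB2 against BS6, ranged from 1 (without SB2 replicate 2) to 8 (without BS6 replicate 2), and the 19 of 37 in SB4 against BS2 from 15 to 21. By adjusted p alone, the 1 member lower in SB2 than in BS6 became 4 with DESeq2 or without BS6 replicate 2, 6 with all libraries in 1 fit and 0 under the replicate block or without any other 1 library, and the 1 member higher in SB4 than in BS2 (Grin1) became 0 with all libraries in 1 fit, without SB4 replicate 1 or 2, or without BS2 replicate 1 or 3, and was Grik3 in its place without SB4 replicate 3. Lower in SB4 than in BS2 were 0 as reported and 1 (Gria4) with DESeq2 or without BS2 replicate 2. Leaving out libraries for the lists of associated genes was chosen after seeing the data. Among single members, 1684 values stayed on their side of the threshold and 6 passed it only in an alternative, among them, without BS6 replicate 2, Grin2d in BS6 against BS2 (1.17) and Grin3b in SB2 against BS6 (-1.34).

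Labels give replicate numbers, but same-numbered libraries did not deviate together (correlations -0.144 to 0.108), so the numbers are names. With the replicate block, 35 members were higher and 2 lower in SB4 against SB2, beside 4793 and 4927 of all 17293 genes. In BS6 against BS2, 2 were higher and 35 lower under the block, beside 4910 and 4596 of 17311 genes. In SB4 against BS2 and SB2 against BS6, 0 members were called under it. Over all genes, calls in SB2 against BS6 depended on the fit: 121 higher and 182 lower by edgeR, 305 and 750 by DESeq2, 326 and 947 with all libraries in 1 fit, 0 and 0 under the block or without any 1 of the SB2 libraries, 17 and 17 without BS6 replicate 1, 17 and 15 without replicate 3 and 270 and 397 without replicate 2. In SB4 against BS2 the counts of 14 higher and 10 lower became 24 and 17 with DESeq2, 26 and 24 without the filter, 3 and 5 with all libraries in 1 fit and 22 and 39 under the block, and 11 to 68 higher and 7 to 47 lower without single libraries. Scaled by total counts, the median log2 difference of all genes in SB4 against SB2 was -0.105, against -0.01 as reported. The depth of the bone-rich libraries limits members under about 0.2 CPM.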
